A study of Homo sapiens with 12 samples.

Results

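The genes described here are 36 named genes of nucleolar ribosome biogenesis and of the wider growth programme that the transcription factor MYC is known to drive. They were chosen by symbol, by a rule that uses no measured value but with earlier results of these data known, from the 25540 genes that had a row in both deposited expression tables, and all 36 were found. The tables hold RNA-seq of LS411N-BR, labelled as resistant to BRAF inhibitors, and of LS411N, labelled as not resistant, which are human cell lines from colon cancer. Each line held a hairpin construct (tet-MUC1shRNA) that DOX, doxycycline, switches on against MUC1, a transmembrane mucin. It was also resistant to puromycin, and the control libraries came from the same cells without DOX. The groups are LS411N-BR with DOX (labelled MUC1-C knockdown), LS411N-BR without it (no DOX), LS411N with DOX and LS411N without it, with 3 libraries in each and 12 in all. DOX was given at 500 ng/ml, the vehicle control was 0.1% DMSO, and LS411N-BR was kept in 4 µM of a BRAF inhibitor that LS411N did not receive. The sources used here do not give the hairpin sequence, the time on DOX, the name of the inhibitor, or whether either line is 1 clone. No library had DOX without the hairpin, so an effect of the drug itself and one of the hairpin cannot be told apart. The inhibitor was given to every LS411N-BR library and to no LS411N library. In any difference between the lines, the line and the inhibitor therefore cannot be told apart either.

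Ribosomes are assembled in the nucleolus. RNA polymerase I transcribes the long precursor ribosomal RNA there. Small nucleolar RNA (snoRNA) particles modify it, and large sets of assembly factors cut and fold it into the small and the large subunit before export. MYC, paired with MAX, binds the E-box sequence CACGTG near the start of many of these genes, and of genes for polyamines, nucleotides, translation factors and mitochondria. Cancer cells of the colon commonly carry high MYC, since MYC is a classic target of WNT signalling. MXD1, a competitor for MAX, is known to act on the same E-boxes as a repressor. Polyamines are small charged molecules that growing cells need for RNA structure and translation. They are made from ornithine by ODC1 and then by SRM.

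The E-box was searched in RefSeq promoter windows on GRCh38.p14, which run from 250 bases before to 50 bases after an annotated start, 300 bases in all. The motif is a palindrome, so 1 search covers both strands. Windows were matched for 30 of the 36 members. CACGTG was present for 16 of the 30 genes (53.3%) and in 16 of their 38 windows (42.1%), against 7.26% of all 35116 windows in the table and 13.2% of the 8588 genes with a window that were tested in LS411N-BR. A match describes letters only and shows no binding. The members were picked partly as known MYC targets, so a share above that of all genes can follow from the choice. HSPD1 and HSPE1 share 1 box, which is counted for both genes. The region before the start of SRM, spermidine synthase, is shown because SRM had the largest increase with DOX of any member in both lines. Its box, in capitals, begins 199 bases before the start.
SRM (chr1:11060019-11060268, minus strand): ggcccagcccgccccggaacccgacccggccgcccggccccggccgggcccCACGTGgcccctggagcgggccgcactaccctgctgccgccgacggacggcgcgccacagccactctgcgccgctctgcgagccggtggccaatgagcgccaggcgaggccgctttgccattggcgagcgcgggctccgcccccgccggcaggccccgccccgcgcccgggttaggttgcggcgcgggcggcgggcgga
The stretch between the RefSeq starts of HSPD1 and HSPE1 is shown because these partner chaperones of the mitochondrial matrix are transcribed in opposite directions from its 2 ends. The 104 bases hold 1 box, which begins 22 bases before the start of HSPE1 on its own strand and 88 bases before that of HSPD1.
HSPD1 and HSPE1 (chr2:197500275-197500378, plus strand): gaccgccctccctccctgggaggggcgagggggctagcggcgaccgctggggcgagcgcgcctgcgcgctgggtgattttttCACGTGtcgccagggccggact
The next set holds 30 bases around the box, in capitals, for the other members with a box that increased with DOX in LS411N-BR.
RCL1 (chr9:4792936-4792965, plus strand, box 4 bases after the start): cctgttccaaacCACGTGgacgcgtctggg
NOP2 (chr12:6568242-6568271, minus strand, box 35 bases after the start): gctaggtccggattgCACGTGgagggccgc
UTP20 (chr12:101280083-101280112, plus strand, box 10 bases before the start): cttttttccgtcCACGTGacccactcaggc
MYBBP1A (chr17:4555340-4555369, minus strand, box 27 bases after the start): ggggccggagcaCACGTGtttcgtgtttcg
PES1 (chr22:30591880-30591909, minus strand, box 13 bases after the start): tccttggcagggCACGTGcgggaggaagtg
The last set holds the boxes of the members that decreased with DOX in LS411N-BR, of which ODC1 has a pair around 1 of its starts.
WDR43 (chr2:28894658-28894687, plus strand, box 3 bases after the start): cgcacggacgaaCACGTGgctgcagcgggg
FBL (chr19:39846356-39846385, minus strand, box 6 bases after the start): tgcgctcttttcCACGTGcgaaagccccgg
ODC1 (chr2:10448024-10448053, minus strand, box 29 bases before the start): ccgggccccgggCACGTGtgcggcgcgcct
ODC1 (chr2:10447990-10448019, minus strand, box 5 bases after the start): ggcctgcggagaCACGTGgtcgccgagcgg
Among members with a window, the box was present for 6 of 10 that increased in LS411N-BR, 3 of 5 that decreased and 7 of 13 that were not called. The box was thus found among members of every direction. NOP16, which increased in both lines, had no box in its window.

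MUC1 itself, on chromosome 1, checked the labels. It had 0.593, 0.357 and 0.392 rescaled TPM in LS411N-BR with DOX, against 3.88, 3.83 and 4.43 without it. LS411N had 0.974, 0.817 and 1.03 with DOX, against 5.44, 7.05 and 4.12 without it. All DOX libraries lay below all others in both lines, with log2 fold changes of -1.80 ± 0.07 (SE, adjusted p = 5.5e-08) in LS411N-BR and -1.73 ± 0.15 (adjusted p = 6.3e-05) in LS411N by limma. Rescaled TPM here are the authors' TPM, which are transcript abundances per length, divided by 1 median-of-ratios factor per library so that most genes line up across the 12 libraries. The factors were 1.09 to 1.18 in LS411N-BR with DOX, 0.952 to 1.03 without it, 0.938 to 1.01 in LS411N with DOX and 0.853 to 1.10 without it. Short RNA genes took 47.4 to 51.4% of TPM in LS411N-BR with DOX and 52.4 to 54.3% without it, against 51.8 to 56.0% in LS411N with DOX and 47.2 to 58% without it. Another listing of short RNA genes, which the snoRNA shares below go with, gave other totals. By library they were 47.2, 51.3 and 50.4% in LS411N-BR with DOX and 54.2, 52.3 and 53.8% without it. In LS411N they were 44.4, 45.5 and 49.0% with DOX and 50.4, 51.9 and 39.3% without it. How the lines compared in these totals thus depended on the listing. SnoRNA genes took 0.486 to 0.512% of TPM in LS411N-BR with DOX and 0.679 to 0.710% without it. In LS411N they took 12.5 to 17.2% with DOX and 12.5 to 17.4% without it. The cause of this snoRNA difference between the lines was not tested. Replicate 3 of LS411N without DOX stood apart, with an SD of log2 differences from its group of 0.221 and 0.225, against 0.0925 to 0.122 for every other pair. Of 11 colon epithelium markers, 10 had at least 1 rescaled TPM in every library. Summed fibroblast and endothelial markers reached at most 3.41 rescaled TPM in a library. Among immune markers, PTPRC, CD3D, CD3E, CD14, CSF1R and ITGAM stayed at or under 0.148, MS4A1 was at 0 throughout, and LYZ and CD68 carried the sum. Without DOX that sum was 2670 to 2803 rescaled TPM in LS411N and 185 to 195 in LS411N-BR, with LYZ means of 2749 and 154. With DOX the sum was 1414 to 1482 in LS411N and 104 to 109 in LS411N-BR. In bulk RNA, fewer cells of a type and less RNA per cell cannot be told apart.

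In LS411N-BR, SRM had the largest increase with DOX among the members, and NOP16, NOLC1 and NOP2 followed it. NOP58, FBL and DKC1, which are 3 of the 6 snoRNA particle genes, were lower after rescaling, as were WDR43, NIP7 and ODC1, and none of these 6 genes was called lower in TPM as deposited. Of 34 members tested, 13 were called higher and 6 lower, at a Benjamini-Hochberg adjusted p under 0.05 in limma over all 11243 genes tested. Over all genes, 33.5% were called higher, 31.3% lower and 64.7% either way, so the members' share of higher calls (38.2%) lay near the background and their share of lower calls (17.6%) under it. All DOX libraries lay above all others for 14 members, against 35.7% of genes, and below for 8, against 33.6%. The changes were small. SRM alone among members passed 1.5-fold, against 6.72% of all genes, and the members' median size of change on the log2 scale was 0.13, against 0.17 over all genes. The members' median was 0.05 and that of all genes 0.01. Directions here are relative to the median gene. In TPM as deposited the median of all genes was 0.18, and 26 members were called higher and 0 lower by limma (27 and 0 at an unadjusted p under 0.05). On that scale 6351 of 11322 genes were called higher and 1252 lower, so genes at large shared the shift to higher calls. Of the 6 members called lower after rescaling, NOP58 stood at -0.02 as deposited and the other 5 between 0.01 and 0.10. Short RNA took a smaller share of TPM in the DOX libraries of this line than in those without DOX, and its part in the deposited values was not tested.

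**Figure D1:**
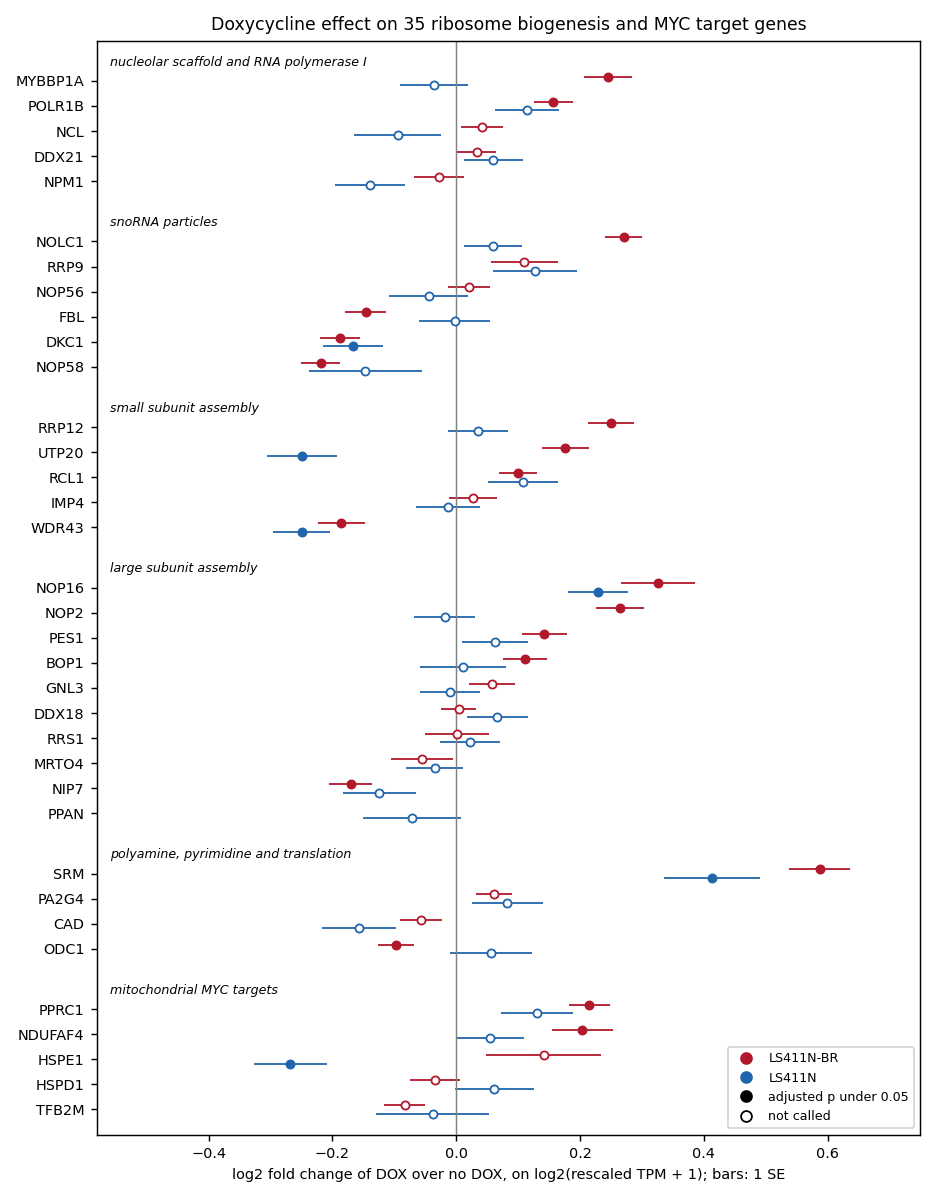
Log2 fold change of DOX over no DOX (horizontal axis, on log2(rescaled TPM + 1), bars 1 SE) for 35 members, grouped by role, with LS411N-BR in red and LS411N in blue. Filled points passed an adjusted p under 0.05 in limma, 13 higher and 6 lower in LS411N-BR and 2 higher and 4 lower in LS411N. On the deposited scale the counts are 26 and 0 in LS411N-BR and 1 and 0 in LS411N. Over all genes on that scale they are 6351 and 1252 of 11322 in LS411N-BR, and 1100 and 387 of 11281 in LS411N.

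Among nucleolar scaffold and RNA polymerase I genes of LS411N-BR, 2 of 5 increased and 0 decreased by limma (2 and 0 also at an unadjusted p under 0.05, while TPM as deposited gave 5 and 0 calls). For this role and the next ones, the shares of all genes were 33.5% higher and 31.3% lower. In TPM as deposited 6351 of 11322 genes were called higher and 1252 lower. The counts by role are small and describe the members listed only. MYBBP1A, a nucleolar protein that binds RNA polymerase I and also restrains MYB, had 35.8, 32.7 and 35.3 rescaled TPM with DOX, against 29.5, 29.2 and 28.3 without it. All DOX libraries were the higher ones (log2 fold change 0.25 ± 0.04, adjusted p = 0.00036). POLR1B, the second largest subunit of RNA polymerase I, averaged 28.3 ± 0.856 with DOX and 25.3 ± 0.213 without it (SD, n = 3 each; 0.16 ± 0.03, adjusted p = 0.0016). The abundant scaffold proteins were not called. NCL, nucleolin, which binds precursor ribosomal RNA, had 449, 446 and 434 rescaled TPM with DOX and 428, 442 and 422 without it. NPM1, nucleophosmin, the main granular component protein of the nucleolus, had 910.4, 884 and 913 with DOX and 927, 887 and 947 without it. The groups overlapped for both, with log2 fold changes of 0.04 ± 0.03 and -0.03 ± 0.04 (adjusted p = 0.31 and 0.56). The RNA helicase DDX21 gave 0.03 (adjusted p = 0.37).

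SnoRNA particle genes moved both ways in LS411N-BR, with 1 of 6 higher and 3 lower (3 and 0 in TPM as deposited). NOLC1, a chaperone that shuttles snoRNA particles within the nucleus, had 152, 148 and 146 rescaled TPM with DOX, against 124, 125 and 121 without it (log2 fold change 0.27 ± 0.03, adjusted p = 3.5e-05). All its DOX libraries were above all others. NOP58, a core protein of box C/D particles, which guide methylation of ribosomal RNA, had 103, 100.4 and 106 with DOX, against 118, 119 and 123 without it (-0.22 ± 0.03, adjusted p = 0.0002). FBL, fibrillarin, the methyltransferase of the same particles, had 159, 164 and 154 with DOX, against 179, 176 and 173 without it (-0.15 ± 0.03, adjusted p = 0.0035). DKC1, dyskerin, the pseudouridine synthase of box H/ACA particles, had 39.0, 36.7 and 36.9 with DOX, against 42.2, 43.5 and 42.8 without it (-0.19 ± 0.03, adjusted p = 0.00066). Every DOX library lay below every other for these 3 genes on the rescaled scale. NOP56, the partner of NOP58 in the same particle, was not called (0.02, adjusted p = 0.61), nor was RRP9, a protein of the U3 particle (0.11, adjusted p = 0.1).

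Small subunit factors included 3 of 5 higher and 1 lower (4 and 0 in TPM as deposited). RRP12, which acts in late maturation and export, had 20.1, 18.4 and 18.6 rescaled TPM with DOX, against 15.7, 15.9 and 15.9 without it (log2 fold change 0.25 ± 0.04, adjusted p = 0.00026). UTP20, a scaffold of the early small subunit precursor, had 19.2, 18.1 and 19.5 with DOX, against 17, 16.9 and 16 without it (0.18 ± 0.04, adjusted p = 0.0026). RCL1, which takes part in precursor cleavage, averaged 17.4 ± 0.281 with DOX and 16.2 ± 0.336 without it (0.10 ± 0.03, adjusted p = 0.017). For each of the 3, the DOX libraries were all above the rest. WDR43, whose yeast counterpart belongs to the complex that links transcription to early processing, went the other way, with 66.1, 62.1 and 65.8 with DOX, against 72.3, 71.7 and 77.1 without it (-0.19 ± 0.04, adjusted p = 0.0019). IMP4, a U3 particle protein, had 31.6, 28.6 and 29.9 with DOX and 29.4, 28.9 and 30.1 without it, and its groups overlapped (0.03, adjusted p = 0.56).

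Large subunit factors included 4 of 9 higher and 1 lower (8 and 0 in TPM as deposited). NOP16, a nucleolar assembly factor and known MYC target, had 36.7, 36.2 and 31.9 rescaled TPM with DOX, against 29.5, 25.8 and 27.6 without it (log2 fold change 0.33 ± 0.06, adjusted p = 0.001). NOP2, a methyltransferase of large subunit RNA, had 88.8, 81.7 and 89.4 with DOX, against 72.7, 70.5 and 72.6 without it (0.26 ± 0.04, adjusted p = 0.00022). Groups did not overlap for either. PES1 and BOP1, which form 1 complex with WDR12 that is needed for large subunit RNA processing, changed by 0.14 ± 0.04 (adjusted p = 0.0069) and 0.11 ± 0.04 (adjusted p = 0.019). NIP7, a factor bound to precursor particles, had 55.3, 56.5 and 54.4 with DOX, against 63.0, 59.9 and 64.6 without it (-0.17 ± 0.03, adjusted p = 0.0018), with all DOX libraries lower. The other 4 were not called. Among them GNL3, the nucleolar GTPase nucleostemin, had 106, 100.5 and 106 with DOX and 98.4, 97.5 and 104 without it. DDX18, a helicase, had 81.0, 82.7 and 84.5 with DOX and 82.6, 81.7 and 83.3 without it. MRTO4 and RRS1 had adjusted p-values above 0.05 too, at mean levels of 24.3 and 26.8 rescaled TPM with DOX, against 25.3 and 26.8 without it.

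The growth metabolism genes gave the largest increase and a small decrease within 1 short pathway, with 1 of 4 higher and 1 lower (2 and 0 in TPM as deposited). SRM, on chromosome 1 from 11054584 to 11060024 (minus strand, GRCh38, GENCODE 29), had 153, 139.8 and 162 rescaled TPM with DOX, against 101, 98.6 and 102 without it. Its lowest DOX library was far above the highest library without DOX, and the ratio of means was 1.51 (log2 fold change 0.59 ± 0.05, adjusted p = 5.4e-06). ODC1, ornithine decarboxylase, the enzyme before SRM in polyamine synthesis, had 182, 181 and 185 with DOX, against 198, 195 and 194 without it (-0.10 ± 0.03, adjusted p = 0.013). PA2G4, which binds RNA and ribosomes, had 258, 256 and 263 with DOX and 248, 247 and 249 without it. Its groups did not overlap, but it was not called (0.06 ± 0.03, adjusted p = 0.089). CAD, the enzyme that starts pyrimidine synthesis, was not called either (-0.06, adjusted p = 0.17).

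Mitochondrial MYC targets included 2 of 5 higher and 0 lower by limma (2 and 1 at an unadjusted p under 0.05, while TPM as deposited gave 4 and 0 calls). PPRC1, a coactivator of mitochondrial biogenesis genes, averaged 26.5 ± 0.877 rescaled TPM with DOX and 22.7 ± 0.312 without it (log2 fold change 0.22 ± 0.03, adjusted p = 0.00028). NDUFAF4, an assembly factor of respiratory complex I, averaged 28.8 ± 1.13 with DOX and 24.9 ± 1.69 without it (0.20 ± 0.05, adjusted p = 0.0047). The chaperonin HSPD1 had 1098, 1141 and 1111 with DOX and 1159.9, 1162 and 1109 without it, so its groups overlapped (-0.03, adjusted p = 0.48). Its partner HSPE1 had 165, 149 and 137 with DOX and 141, 117 and 151 without it, also with overlap (0.14 ± 0.09, adjusted p = 0.2). TFB2M, a mitochondrial transcription factor, sat at the threshold (-0.08, adjusted p = 0.051). PPRC1 and NOLC1 are neighbours on chromosome 10, 1844 bases apart on the same strand.

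Of the 19 calls in LS411N-BR, those of RCL1, BOP1 and ODC1 ended when the spread was taken from all 12 libraries (adjusted p = 0.07, 0.12 and 0.13 by limma). RCL1 was also lost without DOX replicate 1 or no DOX replicate 2, BOP1 without DOX replicate 1 or no DOX replicate 1 or 2, and ODC1 without no DOX replicate 1 (adjusted p = 0.056 to 0.08), while RRP9 was called higher without no DOX replicate 3 and TFB2M lower without DOX replicate 1.

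**Figure D2:**
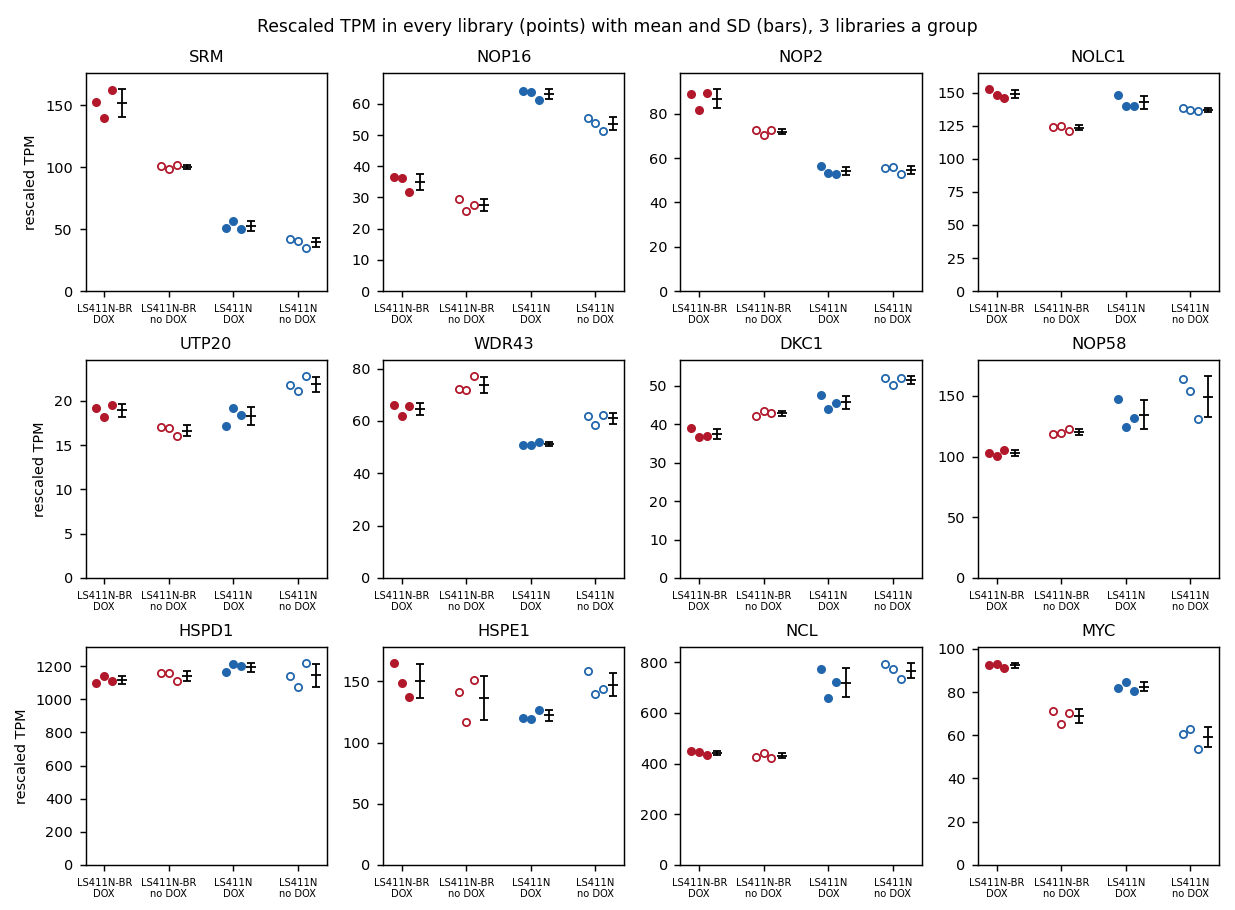
Rescaled TPM (vertical axis, from 0) of 11 members and MYC in every library, as points, with the mean and SD of 3 libraries as bars, DOX filled and no DOX open. SRM, NOP16 and MYC are higher in every DOX library than in every no DOX library of the same line, WDR43 and DKC1 are lower on this rescaled scale (in TPM as deposited both had a log2 fold change of 0.01 in LS411N-BR), and UTP20 is higher in LS411N-BR and lower in LS411N.

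In LS411N, SRM and NOP16 increased with DOX, and UTP20, WDR43, HSPE1 and DKC1 decreased, which makes 2 higher and 4 lower of 35 tested by limma. Over all 11358 genes tested, 19% were called higher and 15.5% lower, so the members' shares of 5.71% and 11.4% lay under the background in both directions. All DOX libraries lay above all others for 4 members, against 26.3% of genes, and below for 6, against 23%. No member passed 1.5-fold at that threshold, against 4.62% of all genes. The members' median change was -0.00 and that of all genes 0.02 on the log2 scale, with median sizes of 0.07 and 0.14. With TPM as deposited, limma called SRM higher and 0 members lower (2 and 0 at an unadjusted p under 0.05). UTP20, WDR43, HSPE1 and DKC1 kept negative log2 fold changes on that scale, of -0.18, -0.18, -0.20 and -0.10, each with an SE of 0.14. Of 11281 genes tested on that scale, 1100 were called higher and 387 lower.

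SRM had 51.1, 56.8 and 49.9 rescaled TPM in LS411N with DOX, against 42.2, 40.6 and 35.2 without it. All DOX libraries were above the rest and the ratio of means was 1.34 (log2 fold change 0.41 ± 0.08, adjusted p = 0.0042). NOP16 had 64.1, 63.9 and 61.2 with DOX, against 55.6, 53.9 and 51.4 without it (0.23 ± 0.05, adjusted p = 0.0074), again with no overlap. ODC1 had 167, 166 and 169 with DOX and 157, 149 and 177 without it (0.06, adjusted p = 0.54). The ODC1 groups overlapped.

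The 4 decreases in LS411N fell in 3 roles. UTP20, on chromosome 12 from 101280109 to 101386616 (plus strand), had 17.2, 19.2 and 18.4 rescaled TPM with DOX, against 21.8, 21.0 and 22.8 without it (log2 fold change -0.25 ± 0.06, adjusted p = 0.01). WDR43 had 50.8, 50.8 and 51.9 with DOX, against 62.1, 58.6 and 62.4 without it (-0.25 ± 0.05, adjusted p = 0.0038). The DOX libraries were all lower for both of these small subunit factors. HSPE1 had 120.3, 119 and 127 with DOX, against 159, 140.0 and 144 without it (-0.27 ± 0.06, adjusted p = 0.0087). DKC1 had 47.5, 44.0 and 45.6 with DOX, against 52.0, 50.2 and 52.0 without it (-0.17 ± 0.05, adjusted p = 0.027). Neither gene's groups overlapped, but the DKC1 call ended without DOX replicate 2 or 3 or no DOX replicate 1 (adjusted p = 0.083 to 0.12). The spans of HSPE1 and HSPD1 overlap on opposite strands, and the sources used here do not say whether strand was used in counting.

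HSPD1 had 1164, 1213 and 1203 rescaled TPM with DOX in LS411N and 1140.3, 1076 and 1218 without it, with overlapping groups (log2 fold change 0.06, adjusted p = 0.49). The nucleolar scaffold and RNA polymerase I genes gave 0 calls of 5 in limma (0 higher and 1 lower at an unadjusted p under 0.05). NCL had 775, 661 and 724 with DOX and 794, 772 and 736 without it (-0.09 ± 0.07, adjusted p = 0.33). NPM1 had 1244, 1243 and 1236 with DOX and 1422, 1333 and 1347 without it. Its groups did not overlap, yet it missed the threshold (-0.14 ± 0.06, adjusted p = 0.088). MYBBP1A had 27.2, 26.2 and 24.7 with DOX and 27.9, 26.6 and 25.6 without it (-0.04, adjusted p = 0.65). In the snoRNA particles, NOP58 had 148, 125 and 132 with DOX and 164, 154 and 131 without it (-0.15 ± 0.09, adjusted p = 0.25), and FBL had 233, 221 and 241 with DOX and 242, 234 and 219.6 without it (-0.00, adjusted p = 0.98). Both overlapped between groups.

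Of the other members followed in every library, the following were not called in LS411N. NOLC1 had 148, 140.0 and 139.9 rescaled TPM with DOX and 139, 137 and 136 without it, and its groups did not overlap (log2 fold change 0.06, adjusted p = 0.36). RRP12 had 19.3, 18.4 and 18.0 with DOX and 17.6, 18.4 and 18.2 without it (0.03, adjusted p = 0.61). NOP2 had 56.2, 53.3 and 52.7 with DOX and 55.7, 56.0 and 52.7 without it (-0.02, adjusted p = 0.8). RRP12 and NOP2 overlapped between the groups. GNL3 had 87.0, 81.4 and 83.9 with DOX and 85.5, 82.1 and 86.4 without it. DDX18 had 63.9, 64.5 and 68.9 with DOX and 64.6, 61.9 and 61.7 without it. IMP4 had 23.4, 25.6 and 23.5 with DOX and 24.3, 24.0 and 24.9 without it. All 3 overlapped. NIP7 had 50.2, 54.2 and 55.3 with DOX and 58.6, 54.6 and 61.1 without it (-0.12, adjusted p = 0.14). PA2G4 had 271, 253 and 251 with DOX and 255, 247 and 231 without it (0.08, adjusted p = 0.3). The groups of these 2 overlapped as well.

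The replicate of LS411N without DOX that stood apart bore on these calls. Without it, limma called 4 members higher, with POLR1B and ODC1 added (adjusted p = 0.023 and 0.039), and 6 lower, with NPM1 and NOP58 added (adjusted p = 0.042 and 0.018). With the spread taken from all 12 libraries, POLR1B and PPRC1 were called higher in addition, and NPM1 and CAD lower.

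**Figure D3:**
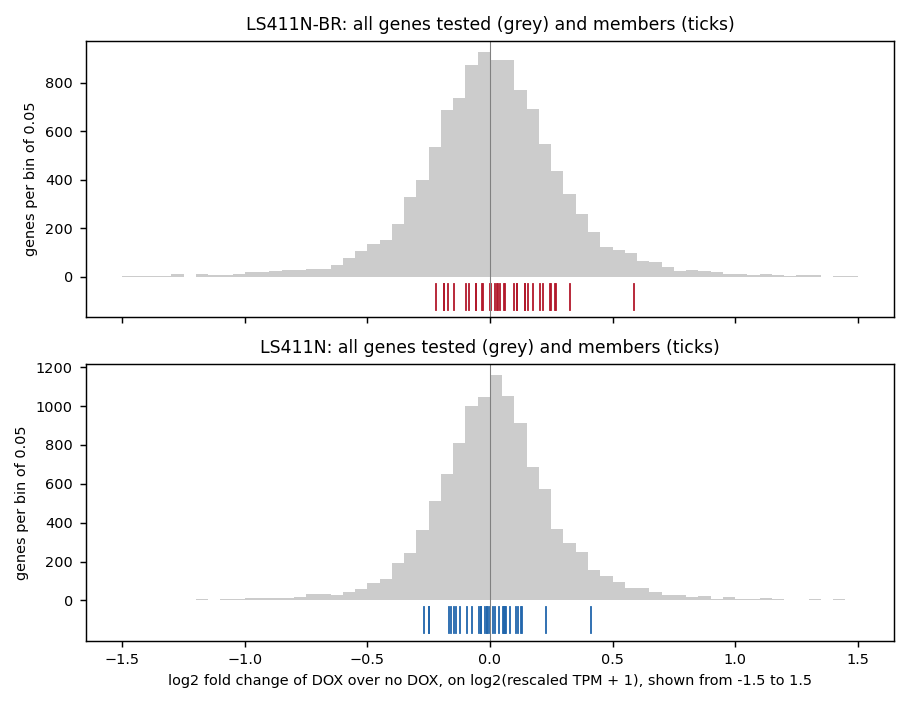
Number of genes per bin of 0.05 (vertical axis) by log2 fold change of DOX over no DOX on log2(rescaled TPM + 1) (horizontal axis, shown from -1.5 to 1.5), for LS411N-BR above and LS411N below, with each tested member as a tick. The members crowd around 0, with median sizes of 0.13 and 0.07 against 0.17 and 0.14 for all genes, and SRM is the tick farthest to the right in each line.

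The difference of the DOX effect between the lines was tested as the interaction over all 12 libraries. A higher effect in LS411N-BR than in LS411N was called for UTP20, NOP2, MYBBP1A, NOLC1 and RRP12, factors of both subunits, of snoRNA particles and of RNA polymerase I. That makes 5 of 35 members (14.3%), against 4.37% of the 11674 genes tested (10.2% were called either way). A lower effect was called for 0 members by limma (1 at an unadjusted p under 0.05), against 5.81% of all genes. The members' median difference was 0.06 on the log2 scale and that of all genes -0.01.

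UTP20 was called in opposite directions in the lines, the 1 member of which this was true, and had a difference of 0.43 ± 0.07 (log2, LS411N-BR effect minus LS411N effect, adjusted p = 0.0018). The difference was 0.28 ± 0.06 (adjusted p = 0.012) for NOP2, 0.28 ± 0.07 (adjusted p = 0.021) for MYBBP1A, 0.21 ± 0.05 (adjusted p = 0.02) for NOLC1 and 0.21 ± 0.06 (adjusted p = 0.035) for RRP12. These 4 genes were called higher in LS411N-BR alone. Differences between the lines were not shown for SRM (0.17 ± 0.10, adjusted p = 0.3) or NOP16 (0.10, adjusted p = 0.51), which increased in both. HSPE1 was called lower in LS411N and not in LS411N-BR, but its difference of 0.41 ± 0.12 just missed the threshold (adjusted p = 0.055). The FBL call in LS411N-BR likewise had no called difference (-0.14 ± 0.07, adjusted p = 0.19).

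In TPM as deposited 0 of the 5 differences were called by limma (8 members higher and 0 lower at an unadjusted p under 0.05), although the values grew (UTP20 0.55, adjusted p = 0.073). RRP12 was lost when any of 8 libraries was left out, all but LS411N-BR DOX replicate 2, LS411N DOX replicate 1 and LS411N no DOX replicates 1 and 3, and with the replicate number as a block (adjusted p = 0.054 to 0.096). MYBBP1A was lost without LS411N-BR DOX replicate 1 or 3, LS411N-BR no DOX replicate 3 or LS411N DOX replicate 3, and NOLC1 without LS411N-BR DOX replicate 1, LS411N-BR no DOX replicate 3 or LS411N DOX replicate 2 (adjusted p = 0.052 to 0.065). Without LS411N no DOX replicate 3, the library that stood apart, 7 members were called higher, with SRM and HSPE1 added, and ODC1 was called lower (-0.22, adjusted p = 0.0055).

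Across the 34 members tested in both lines, 24 had the same sign of change (70.6%), against 79.3% of 10928 genes. The correlation of the members' log2 fold changes between the lines was r = 0.617 over those 34 genes, and r = 0.825 over all genes. These are correlations across genes of 12 libraries and genes are not independent replicates. SRM, NOP16, WDR43 and DKC1 were called in the same direction in both lines after rescaling.

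The levels of the members differed between the lines more than they moved with DOX. The median size of the log2 difference between lines was 0.31 with DOX and 0.28 without it, against 0.13 and 0.07 for the DOX effects, and over all genes it was 0.33 and 0.31. These levels come from separately made tables, so they are set side by side after rescaling, with no test. SnoRNA took a far larger share of TPM in every LS411N library than in any LS411N-BR library. Its part in the differences of level was not tested. With DOX, every LS411N-BR library was above every LS411N library for 14 of 35 members, against 43.6% of genes, and below for 13, against 38.3%. Without DOX the counts were 13 (41.5% of genes) and 15 (34.6%). On the deposited scale, the members above numbered 22 with DOX and 8 without it. No share over all genes is at hand for that scale, so these counts cannot be read as a result about the members.

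SRM stood out in this comparison too, with 152 ± 11.2 rescaled TPM in LS411N-BR and 52.6 ± 3.71 in LS411N with DOX, and 100.4 ± 1.65 in LS411N-BR and 39.3 ± 3.69 in LS411N without DOX (SD, n = 3 each). The ratio of LS411N-BR to LS411N was 2.88 with DOX and 2.55 without it, the highest of the members. NDUFAF4 had ratios of 1.62 with DOX and 1.45 without it, and NOP2 1.6 and 1.31. DDX18, POLR1B, BOP1, WDR43, IMP4, GNL3, PPRC1, TFB2M, ODC1 and MYBBP1A were likewise above in LS411N-BR in both states, and HSPE1 with DOX alone. NOP16, in contrast to its increase with DOX, had ratios of 0.55 with DOX and 0.52 without it.

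Among the members that lay below LS411N in LS411N-BR were the abundant scaffold proteins, while the scaffold and RNA polymerase I role as a whole had 2 of 5 above and 2 below in each state. NCL averaged 443 ± 7.85 in LS411N-BR and 720.0 ± 57.3 in LS411N with DOX, and 431 ± 10.4 in LS411N-BR and 768 ± 29.5 in LS411N without it. NPM1 averaged 902 ± 16.3 in LS411N-BR and 1241 ± 4.41 in LS411N with DOX, and 920.3 ± 30.6 in LS411N-BR and 1367 ± 48.1 in LS411N without it. The groups did not overlap for either gene in either state. NOP56, the partner of NOP58, was at 0.61 of its LS411N level with DOX and 0.58 without it, and MRTO4 and RRS1, which act with the large subunit, were at 0.59 with DOX and 0.60 without it. Of the 6 snoRNA particle genes, 4 lay below LS411N in every library with DOX and 5 without it, and RRP9 overlapped in both states. UTP20, NOLC1 and RRP12 overlapped between the lines with DOX, and all 3 lay below LS411N in every LS411N-BR library without DOX.

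**Figure D4:**
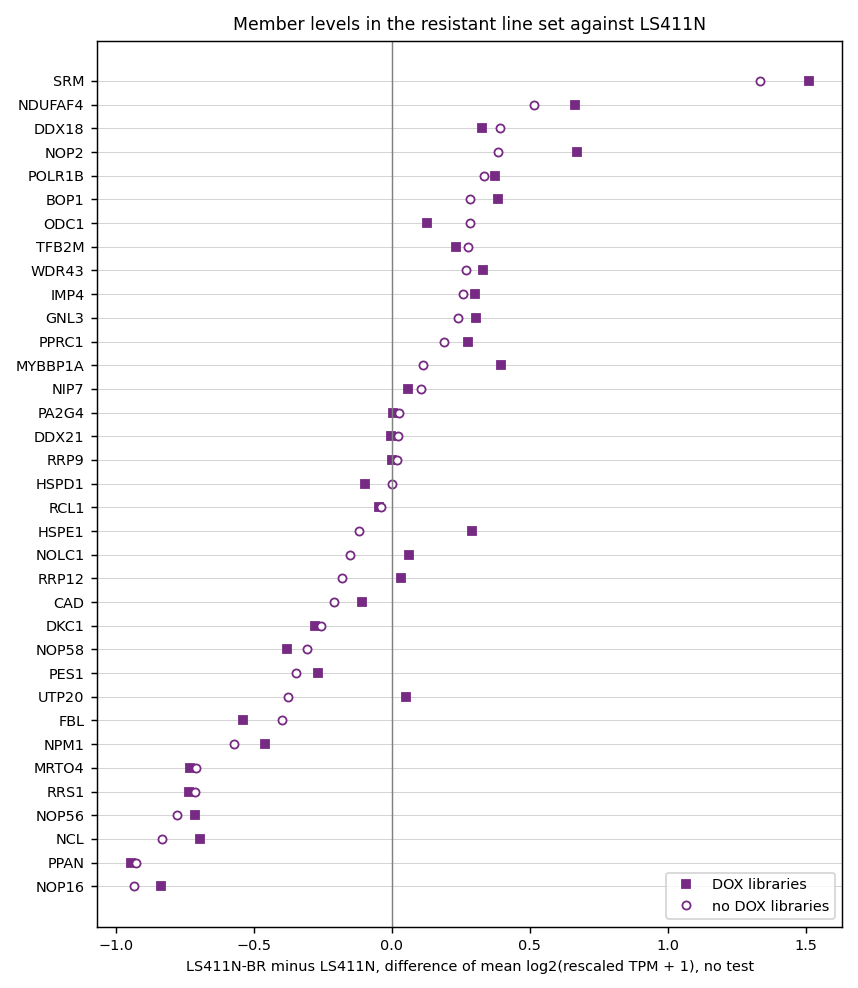
Difference of mean log2(rescaled TPM + 1) between LS411N-BR and LS411N (horizontal axis) for 35 members, from DOX libraries (squares) and no DOX libraries (circles), with no test. SRM lies farthest above 0, PPAN and NOP16 lie farthest below it in both states, and UTP20 lies near 0 with DOX and below 0 without it.

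EIF4A1, the helicase of the translation initiation complex that opens messenger RNA, was listed at 0 in all 12 libraries and was not tested. Its relative EIF4A2, from another gene, had 172.6 to 227.1 rescaled TPM, and the annotated readthrough gene SENP3-EIF4A1, which shares its exons, at most 0.0922. PPAN, a large subunit factor, was low, with 0.602 ± 0.113 rescaled TPM in LS411N-BR with DOX, 0.703 ± 0.1 without it, 2.08 ± 0.0637 in LS411N with DOX and 2.24 ± 0.283 without it. It was under the filter in LS411N-BR and not called in LS411N (adjusted p = 0.51). PPAN-P2RY11, the readthrough gene that spans it, was listed at 0 throughout. An exact 0 can be a failed assignment of reads to overlapping genes, so no level is drawn from either listing.

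The members' snoRNA guests had no row under their GENCODE 29 symbols, so only their hosts could be followed. In GENCODE 29, 9 members host 29 annotated snoRNA entries on the same strand, with an overlap of entries within GNL3. Of the 7 hosts tested in LS411N-BR, limma called 0 higher and 4 lower, namely NOP58, DKC1, WDR43 and ODC1, with NCL, NOP56 and GNL3 not called, where 33.5% of all genes were called higher and 31.3% lower. The 27 members that host none had 13 higher and 2 lower. In LS411N, 0 of 8 hosts were called higher and 2 lower (DKC1 and WDR43), against 2 and 2 of 27 other members and 19% and 15.5% of all genes. The split was not tested, and in TPM as deposited 0 members were called lower in either line.

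MYC itself increased in both lines. It had 92.7, 93.2 and 91.2 rescaled TPM in LS411N-BR with DOX, against 71.1, 65.3 and 70.5 without it (log2 fold change 0.42 ± 0.04, adjusted p = 7.2e-06 by limma). In LS411N it had 82.0, 84.9 and 80.7 with DOX, against 60.4, 63.0 and 53.8 without it (0.48 ± 0.06, adjusted p = 0.00072). All DOX libraries were above all others in each line, and a difference between the lines was not shown (-0.06, adjusted p = 0.66). MAX, its partner, increased too, by 0.42 in LS411N-BR (adjusted p = 6.6e-06) and 0.20 in LS411N (adjusted p = 0.019, lost in TPM as deposited and without LS411N DOX replicate 1 or 3 or no DOX replicate 2). The repressor MXD1 averaged 5.26 ± 0.184 rescaled TPM with DOX and 2.69 ± 0.0315 without it in LS411N-BR (0.76, adjusted p = 2.6e-07), and 5.66 ± 0.136 with DOX and 4.21 ± 0.0558 without it in LS411N (0.35, adjusted p = 0.0013). MLXIPL, the glucose-responsive factor of the same network, fell by 0.60 in LS411N-BR and by 0.71 in LS411N (adjusted p = 7.7e-07 and 0.00053). Of 13 network factors tested in LS411N-BR, 6 were higher and 5 lower, and of 12 in LS411N, 3 and 4. The shares of all genes were 33.5% higher and 31.3% lower in LS411N-BR, and 19% and 15.5% in LS411N. In TPM as deposited the list had 6 higher and 5 lower in LS411N-BR and 2 and 1 in LS411N.

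The wider pathway, from lists chosen by function, had calls in both directions, as did genes at large. Of all genes, 33.5% were called higher and 31.3% lower in LS411N-BR, and 19% and 15.5% in LS411N. Without rescaling, 6351 and 1252 of 11322 genes were called in LS411N-BR, and 1100 and 387 of 11281 in LS411N. Of 44 other small subunit factors, 17 were higher and 8 lower in LS411N-BR by limma, and 6 and 6 in LS411N. The small subunit factors EMG1 and PNO1 fell in both lines, by 0.55 and 0.41 in LS411N-BR and by 0.36 and 0.37 in LS411N, as did the helicase DDX52, by 0.24 and 0.28. Of genes listed as other large subunit factors, 16 of 42 were higher and 7 lower in LS411N-BR, and 3 and 2 of 43 in LS411N. RPF2 (0.30 in LS411N-BR and 0.17 in LS411N), MAK16 (0.23 and 0.34) and the export adaptor NMD3 (0.21 and 0.31) increased in both. NOP9, which was in this list but is not strictly a large subunit factor, increased in LS411N-BR (0.46). In LS411N the RPF2 call ended without any DOX replicate or no DOX replicate 2, and that of NMD3 without DOX replicate 3. Among 17 other genes listed under RNA polymerase I, 4 were higher and 5 lower in LS411N-BR, and 1 and 4 in LS411N. TTF1, the terminator of ribosomal DNA transcription, fell by 0.84 in LS411N-BR and by 0.74 in LS411N (adjusted p = 5.3e-07 and 0.00015). NOP53, a nucleolar protein in the same list that is not part of the polymerase, fell by 0.50 and 0.36. Of 13 other snoRNA particle genes, 4 were higher and 3 lower in LS411N-BR, with SNU13 (0.22) and NOP10 (0.26) up and PIH1D1 (-0.35) down. In LS411N 1 was higher, NOP10 (0.22, lost without DOX replicate 2), and 0 lower by limma (2 and 0 at an unadjusted p under 0.05). Without rescaling the calls in LS411N-BR were 33 higher and 3 lower for the small subunit, 32 and 0 for the large subunit, 10 and 2 for RNA polymerase I and 9 and 1 for snoRNA particles, and DDX52 stood at -0.06 (adjusted p = 0.42). In LS411N they were 0 and 0 for both subunits and for snoRNA particles and 0 and 1 for RNA polymerase I by limma. Of the genes named here TTF1 alone stayed called. EMG1, PNO1 and DDX52 kept negative log2 fold changes there, of -0.29, -0.31 and -0.21 (adjusted p = 0.22, 0.17 and 0.35).

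In the metabolic lists, SMS, the enzyme after SRM that makes spermine, fell by 0.35 in LS411N-BR and by 0.29 in LS411N (adjusted p = 9.8e-06 and 0.0045). OAZ2, an inhibitor of ODC1, fell by 0.46 in LS411N-BR and by 0.43 in LS411N. Of 10 other polyamine genes tested, 1 was higher and 5 lower in LS411N-BR, and 0 and 3 in LS411N by limma (2 and 3 at an unadjusted p under 0.05). For this list and the next ones, the shares of all genes were 33.5% higher and 31.3% lower in LS411N-BR, and 19% and 15.5% in LS411N. In nucleotide synthesis 4 of 16 were higher and 7 lower in LS411N-BR, and 4 and 1 in LS411N. CTPS1, which makes CTP, fell by 0.56 in LS411N-BR and by 0.64 in LS411N, and PPAT, the first purine enzyme, increased by 0.27 and 0.36. Mitochondrial chaperone and transcription genes had 5 of 14 higher and 6 lower in LS411N-BR, and 1 and 2 of 15 in LS411N. PHB2, a prohibitin, fell by 0.48 in LS411N-BR and by 0.23 in LS411N, the protease LONP1 by 0.41 in LS411N-BR, and the coactivator PPARGC1A by 0.58 in LS411N. Translation initiation genes had 5 of 13 higher and 5 lower in LS411N-BR, with EIF2S1 (0.21) up and EIF4B (-0.20) and EIF4EBP2 (-0.10) down. Of the last pair, EIF4B stood at 0.00 and EIF4EBP2 at 0.10 in TPM as deposited, and the EIF4EBP2 call also ended without DOX replicate 2 or no DOX replicate 2 or 3. In LS411N 0 were higher and 1 lower by limma (0 and 1 at an unadjusted p under 0.05), EIF4EBP2 (-0.20). Without rescaling the calls in LS411N-BR were 4 higher and 2 lower for polyamines, 9 and 1 for nucleotides, 8 and 2 for mitochondria and 8 and 0 for translation. In LS411N they were 0 and 0 by limma for polyamines and translation, 2 and 1 for nucleotides and 0 and 1 for mitochondria. The calls of SMS, OAZ2, PHB2 and EIF4EBP2 ended (adjusted p = 0.41, 0.082, 0.55 and 0.63), at log2 fold changes of -0.21, -0.36, -0.16 and -0.13.

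Summed proliferation markers were lower in the DOX libraries of both lines after rescaling. In LS411N-BR 0 of 16 were higher and 12 lower by limma (0 and 12 at an unadjusted p under 0.05), and in LS411N 1 and 7. The shares of all genes were 33.5% higher and 31.3% lower in LS411N-BR, and 19% and 15.5% in LS411N. TOP2A fell by 0.33 in LS411N-BR and by 0.42 in LS411N, MCM5 by 0.33 and 0.30, and MCM2 by 0.24 in each. The summed markers were 1286 to 1306 rescaled TPM in LS411N-BR with DOX and 1433 to 1448 without it, and 1236 to 1285 in LS411N with DOX and 1317 to 1429 without it. In TPM as deposited 4 of these markers were called higher and 1 lower in LS411N-BR, and 0 and 0 in LS411N by limma. All 16 had at least 1 rescaled TPM in every library, and their part in the members' changes was not tested. Of 10 colon epithelium markers tested, 6 were higher and 2 lower in LS411N-BR by limma, and 6 and 1 in LS411N. In TPM as deposited they were 8 and 1 in LS411N-BR, and 4 and 1 in LS411N. Among cell type markers, KRT19, a keratin of epithelium, increased by 1.14 in LS411N-BR and 1.33 in LS411N. GPA33, an intestinal surface antigen, fell by 0.95 and 0.63. LYZ, lysozyme, fell by 1.80 in LS411N-BR and by 0.95 in LS411N, and CD68, a lysosomal protein, increased by 0.80 and 1.14. LUM, a matrix protein, increased by 0.54 in LS411N-BR, where it averaged 2.40 ± 0.398 rescaled TPM with DOX and 1.34 ± 0.211 without it.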

How the data were processed

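RNA-seq was made from 12 libraries, 3 in each of 4 groups, after TruSeq Stranded mRNA preparation, per the labels' protocols. The authors deposited TPM per gene, with a table for each line and 1000000 TPM in every library. Per the submitters' processing notes, STAR, DESeq2 and GRCh38 were used, with no roles stated. The sources used here do not name the program that made the TPM. Read totals are not given either, so depth is unknown and counting error has no interval.

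TPM were divided by median-of-ratios factors over 14233 genes above 0 in all 12 libraries. Genes with at least 1 rescaled TPM in at least 3 libraries compared were tested on log2(rescaled TPM + 1) by limma 3.58.1 (R 4.3.3) with an intensity trend, within each line, and over 12 libraries for the interaction. A call is a two-sided Benjamini-Hochberg adjusted p under 0.05. Fold changes on this scale understate those of low genes. Nothing says that the triplicates were separate cultures, so p-values may measure technical spread alone.

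The members and lists were chosen with earlier results of these data known. Values in every library are given for the 2 most abundant members of each role and for up to 4 called members with the largest change in each direction per comparison. MUC1 and MYC are always named. From other lists come up to 2 called members with the smallest adjusted p in each line, and MAX was added after its values were seen. Positions are from GENCODE 29. The test was checked on simulated data.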

Additional observations from a re-analysis of the deposited data

Results flagged for a closer look

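The DOX effect differed between the lines, as a tested interaction in limma (LS411N-BR effect minus LS411N effect, log2), for 5 members: UTP20 (0.43), NOP2 (0.28), MYBBP1A (0.28), NOLC1 (0.21) and RRP12 (0.21). UTP20 was higher with DOX in LS411N-BR and lower in LS411N, and the other 4 were called in LS411N-BR only, by a test in each line. Among the genes named from other lists it differed for the MYC network factors MXD1 (0.41) and MAX (0.22, lost under 14 of 21 alternatives, among them 9 that leave out a library, TPM as deposited, a replicate block, another pseudocount, no filter and no trend), and for the ribosome assembly factor NOP9 (0.38). It was also called for PIH1D1 (-0.33), PHB2 (-0.25) and LONP1 (-0.44). PPARGC1A had 0.64, where LS411N-BR was under 1 rescaled TPM in every library. The cell type markers GPA33 (-0.32), LYZ (-0.85) and CD68 (-0.33) differed as well. PIH1D1 and LONP1 lost the call without some libraries and with no filter, PHB2 without some libraries, and in TPM as deposited all 3 and NOP9, GPA33 and CD68 lost it.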

How the results depend on the processing

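Scaling decided most. In TPM as deposited, with no rescaling, 26 members were higher and 0 lower in LS411N-BR, 1 and 0 in LS411N, and 0 had a higher effect in LS411N-BR by limma. The members above LS411N in every LS411N-BR library then numbered 22 with DOX and 8 without it. With no share over all genes at hand, a shift of genes at large cannot be told from one of the members. Log2 fold changes in LS411N-BR turned positive for NPM1 (0.17), FBL (0.0542), DKC1 (0.00925), WDR43 (0.0127), MRTO4 (0.14), NIP7 (0.0277), ODC1 (0.10), HSPD1 (0.17), EIF4B (0.00126) and EIF4EBP2 (0.10). Over all genes the calls were 6351 higher and 1252 lower of 11322 in LS411N-BR, 1100 and 387 of 11281 in LS411N, and 162 and 85 of 11674 in the difference. After rescaling they were 3761 and 3516 of 11243, 2159 and 1758 of 11358, and 510 and 678 of 11674. With the spread taken from all 12 libraries, 4 members were higher in LS411N. Leaving out each library in turn gave 11 to 14 members higher and 5 to 7 lower in LS411N-BR, 2 to 4 and 3 to 6 in LS411N, and 2 to 7 with a higher and 0 to 1 with a lower effect in LS411N-BR. For levels between the lines it gave 14 to 17 above and 13 to 14 below with DOX, and 13 to 14 and 15 to 16 without it.

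Replicate numbers did not pair the libraries. Same-numbered libraries had correlations of deviations of 0.0312, -0.0025 and 0.0048 in LS411N-BR and 0.0258, 0.0193 and 0.194 in LS411N, and 1 of 6 libraries matched its own number best. With a replicate block the counts were 13 and 6 in LS411N-BR, 2 and 4 in LS411N, and 4 and 0 in the difference, by limma. Over all genes, the block gave 392 higher and 607 lower differences.

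Another pseudocount, other filters, other sets of genes behind the factors, no trend and robust moderation kept the counts of members called higher and lower in each line, and of members whose effect differed, within 1.5 times. TFB2M was called lower in LS411N-BR with factors per line, with factors over protein-coding genes and with a filter of 5 TPM (adjusted p = 0.034, 0.046 and 0.048). Where a setting changed a call, the cause was not tested. Depth is unknown, so how far it limits members such as PPAN cannot be given.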
